A study of Mus musculus with 12 samples.

Results

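The genes described here encode the conjugating enzymes of detoxification in mouse colorectal tissue. They were chosen by symbol alone, as every row of the count table named Ugt1a, Ugt2a or Ugt2b with a number, Gsta, Gstm, Gstk, Gsto, Gstp or Gstt with a number, Gstz1, Sult or Mgst with a number, Nat1 or Nat2. The rule took 53 of 18514 genes: 15 UDP-glucuronosyltransferases (UGT), 21 cytosolic and mitochondrial glutathione S-transferases (GST), 3 microsomal glutathione S-transferases (MGST), 12 sulfotransferases (SULT) and 2 N-acetyltransferases (NAT). RNA was sequenced from 12 male C57BL/6 mice, bought at an age of 4 weeks, with 1 library per mouse and 3 mice in each group. Mice of the Ctrl group received plain drinking water and were put in shallow water without training. Mice of the Ctrl_Swim group differed from them by swim training, raised stepwise to 90 min a day. Mice of the Model group were untrained and received the carcinogen azoxymethane (AOM) as a single dose of 10 mg/kg, followed by 3 cycles of 2% dextran sulfate sodium (DSS), which injures the colonic lining. Mice of the Model_Swim group received AOM and DSS in the same way and were trained to swim. The model combines a chemical mutagen with repeated colitis. Each library was made from colon tissue in which cell types were not separated. The part of the colon taken and its tumor content are not given in the sources used here.

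Conjugating enzymes form the phase II of detoxification: they attach a polar group to a drug, dietary compound, hormone or bile pigment, which makes it soluble and ready for export. UGTs transfer glucuronic acid from UDP-glucuronic acid, SULTs transfer sulfate from the donor PAPS, GSTs and MGSTs add glutathione to electrophiles, and NATs add an acetyl group to arylamines. In the colon these enzymes sit mainly in the surface epithelium, which meets compounds from food and from bacteria, and the receptors AHR and PXR and the factors NRF2 and HNF4A are known to control many of their genes.

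The libraries held 17256953 to 19451055 counts each. Levels of a gene between mice are given below as normalised read counts (CPM, scaled by TMM), where 3 counts amount to 0.154 to 0.174 CPM. Libraries of the Model group differed from each other more than those of the other groups, and several marker lists showed it. The summed level of 15 general epithelial genes was 18181 to 20216 CPM in Ctrl, 14808 to 18990 CPM in Ctrl_Swim, 13911 to 14407 CPM in Model and 15579 to 16496 CPM in Model_Swim. Epithelium was thus detected in every library, which does not show that a library held colon alone. The summed level of 18 genes of mature colonocytes was 14062 to 14780 CPM in Ctrl, 12271 to 17906 CPM in Ctrl_Swim and 13036 to 14976 CPM in Model_Swim, but 4149, 5966 and 12238 CPM in Model 1, 2 and 3. Model 3 stood apart from Model 1 and 2 in other lists as well. Its 12 neutrophil genes summed to 38.4 CPM, against 368 and 452 CPM in Model 1 and 2 and 19.1 to 32.7 CPM in Ctrl, and its 8 distal colon Hox genes summed to 49.2 CPM, against 282 and 271 CPM in Model 1 and 2 and 132 to 196 CPM in Ctrl. The 30 pancreatic acinar genes summed to 57214 CPM in Model 1 and 28661 CPM in Model 3 and to at most 2263 CPM in every other library. This list shares Zg16 with a list of goblet cell genes, so its sum, and its use as a covariate, need not stand for acinar RNA alone. The part of these differences in the results below was not tested apart from fits without a library or with a list as a covariate, whose values are given where they bear on a count.

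Levels between genes were compared in FPKM, which is per length. In the Ctrl mice the most abundant member was Mgst3, a microsomal enzyme with glutathione transferase and peroxidase activity, at 539.5 ± 26.9 FPKM (SD, n = 3). Gsto1 of the omega class followed at 336 ± 1.89, Gstp1 at 224 ± 11.5, Gstm1 at 217 ± 13.6 and Ugt2b34 at 201 ± 7.11 FPKM (SD, n = 3), and the neighbours Gstp1 and Gstm1 did not differ beyond their spread. Sult1d1, which sulfates catecholamines and related phenols, had 129 ± 9.78 FPKM and Sult1a1, the general phenol sulfotransferase, 64.8 ± 7.73 FPKM (SD, n = 3), but their order is uncertain because the length implied for Sult1a1 exceeds its annotated exons, as given below. In FPKM the GST family made up 48.2% of the summed level of the 53 members in Ctrl, MGST 27.2%, UGT 12.8%, SULT 11.7% and NAT 0.139%. The length implied for Sult1a1 enters the SULT share as well, so the order of UGT and SULT in FPKM is uncertain. In CPM, which is not per length, the shares were GST 37.1%, UGT 25.9%, SULT 21.9%, MGST 14.35% and NAT 0.665%. Of the 53 members, 41 had counts enough to be tested. The 12 others were Ugt1a5, Ugt1a6b, Ugt1a9, Ugt2a1, Ugt2a3, Ugt2b1, Gstt4, Sult1c1, Sult2a8, Sult6b1, Sult6b2 and Nat1, and of these Sult6b2 had 0 counts in every library.

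Some of these levels cannot be assigned to 1 gene. In the GENCODE M21 annotation the 7 Ugt1a genes, which lie on chromosome 1 and share their last exons, have between 50.3% and 60.6% of their exonic bases in common with other Ugt1a genes, and the counting mode for such bases is not given in the sources used here. Ugt2a1 shares 98.8% of its exonic bases in the same way. Among stretches of 100 bases, 80.6% of those of Gsta1 also occurred in other genes, 46.9% of those of Gstp2, 25.1% of those of Gstp1 and 24.7% of those of Ugt2b5. The levels of Sult1a1 and Nat2 in FPKM are low for their counts, because the lengths implied by the table are 4594 and 7152 bases where the annotation has 1507 and 1522 exonic bases.

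The families differed in how far their summed level was lower in the AOM/DSS mice. The 15 UGT genes summed to 306, 339 and 318 FPKM in Ctrl and to 117, 154 and 244 FPKM in Model, and the Model mean was 53.4% of the Ctrl mean. The 12 SULT genes summed to 274, 312 and 296 FPKM in Ctrl and to 115, 148 and 204 FPKM in Model, or 52.9% of the Ctrl mean. Neither family had a Model mouse that reached the Ctrl range. The 21 GST genes summed to 1169, 1231 and 1228 FPKM in Ctrl and to 964, 1169 and 1087 FPKM in Model, or 88.8% of the Ctrl mean, and there the highest Model mouse and the lowest Ctrl mouse stood level. The 3 MGST genes stood at 75.3% and the 2 NAT genes at 96.2% of the Ctrl mean. The share of UGT in the summed level of all members was 12.8% ± 0.197 in Ctrl and 8.76% ± 2.26 in Model, that of SULT 11.7% ± 0.271 and 8.002% ± 1.31, and that of GST 48.2% ± 0.828 and 56.2% ± 4.98 (SD, n = 3). With CPM scaled by TMM, in place of FPKM, the Model means were 50.02% for UGT, 48.5% for SULT and 81.4% for GST, the same order of UGT and SULT against GST. In CPM the GST sums did not overlap either, at 1445, 1498 and 1504 in Ctrl and 1093, 1309 and 1219 in Model. The level values of GST were thus seen in FPKM only, which is not scaled by TMM. Lower summed levels of this kind cannot tell fewer epithelial cells from less RNA per cell in bulk tissue. These sums are a description and were not tested.

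**Figure D1:**
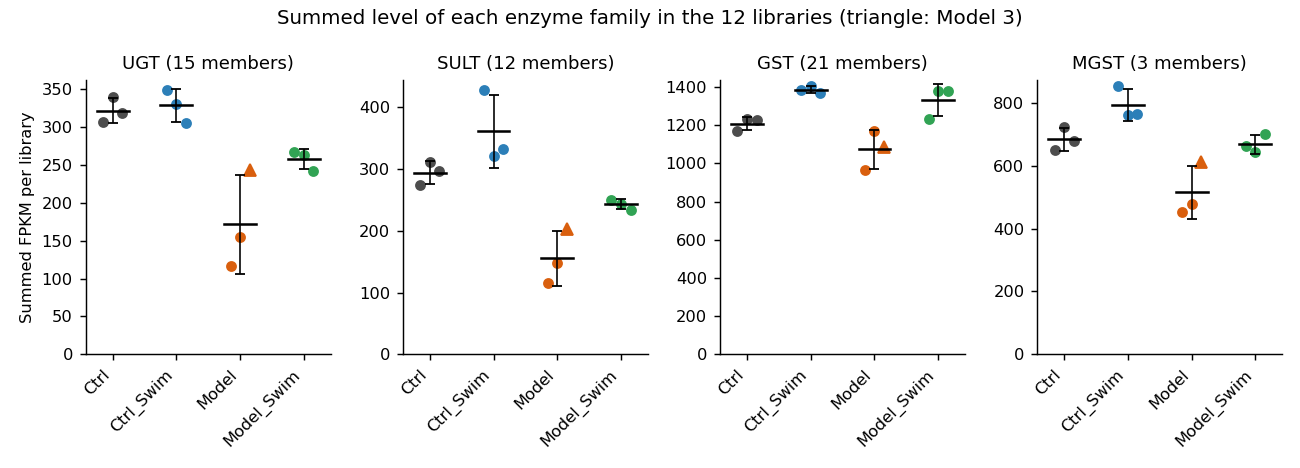
Summed FPKM of the UGT, SULT, GST and MGST families in each library, with the mean (line) and SD (bar) of the 3 mice of each group. Model 1 and 2 lie lowest for UGT and SULT, at 117 and 154 FPKM and at 115 and 148 FPKM, while Model 3 (triangle) lies nearer to the swimming AOM/DSS mice.

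Between Model and Ctrl, which sets AOM/DSS against no treatment in untrained mice, 19 of the 41 tested members changed at an adjusted p under 0.05, 17 of them lower and 2 higher. Over all 15484 genes tested, 32.7% changed, 16.2% lower and 16.5% higher. With a fold change over 2 or under 0.5 as well, the cutoffs of the study, 5 members passed, 4 lower and 1 higher, beside 7.43% of all genes, 1.22% lower and 6.21% higher. The estimate was negative for 37 of the 41 members, and the median log2 fold change was -0.46, beside 0.01 for all genes. An unadjusted p under 0.05 was reached by 24 members, beside 45.2% of all genes. The groups did not overlap in 21 members, beside 44.2% of all genes, and in 19 of them Model was the lower group, beside 23.3%. For 16 members all 3 Model mice lay below all 9 other mice, which was the case for 4.71% of all genes. By family, 3 of 9 tested UGTs, 7 of 20 GSTs, 2 of 3 MGSTs and 5 of 8 SULTs fell, while Gsta3 and Sult5a1 rose and Nat2, the only NAT tested, did not pass. The median log2 fold changes were -1.16 for UGT, -0.76 for SULT, -0.50 for MGST and -0.31 for GST.

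**Figure D2:**
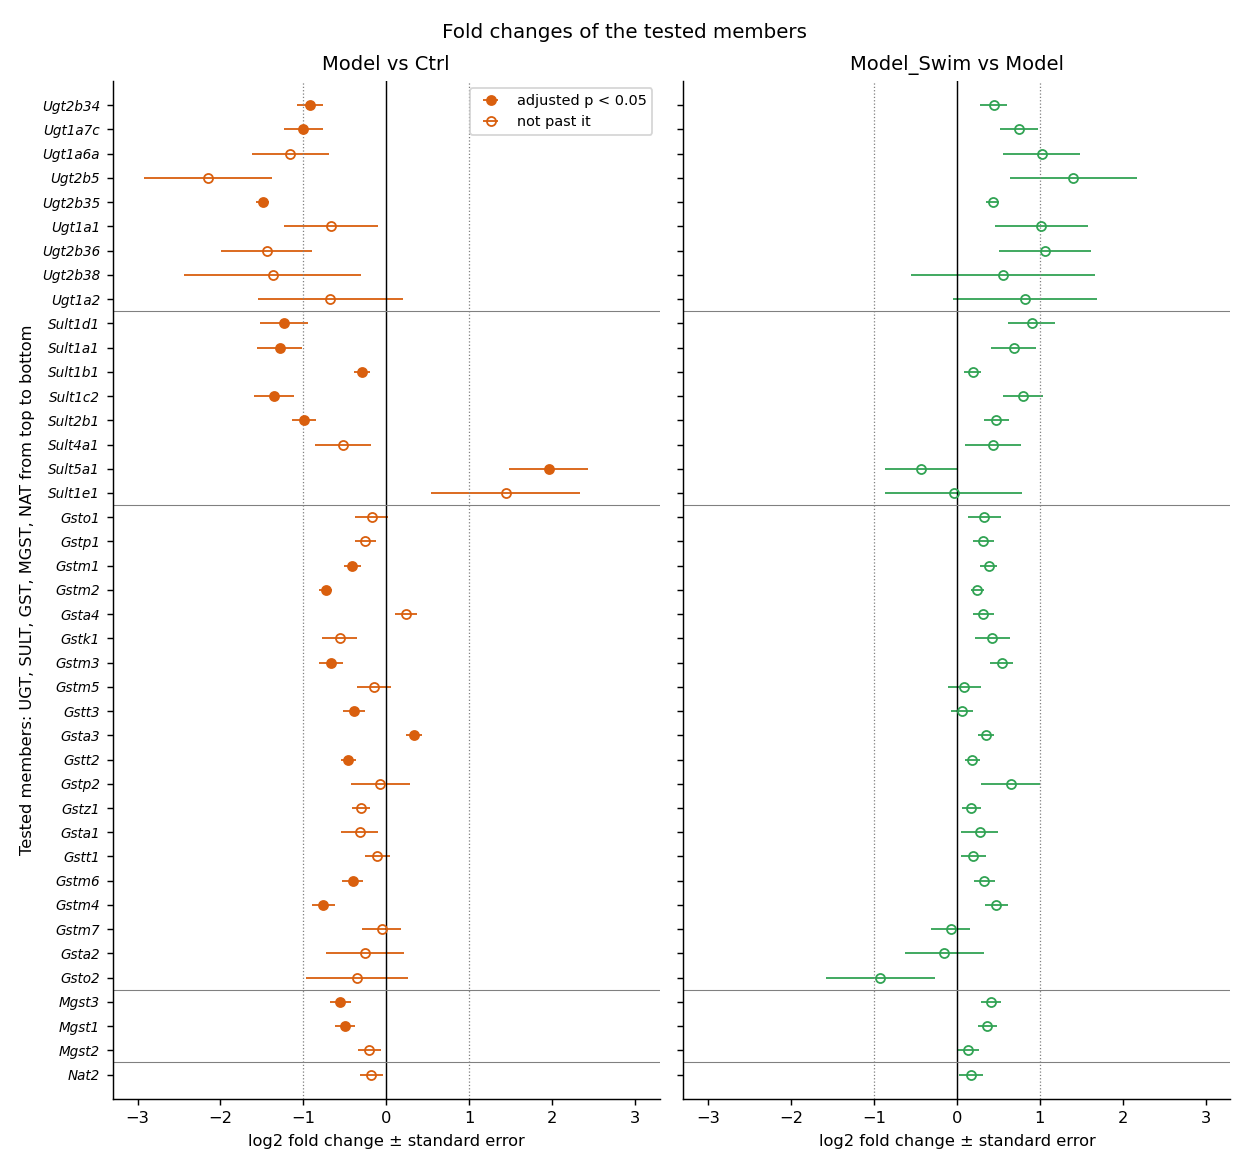
Log2 fold change with standard error of the 41 tested members for Model vs Ctrl and for Model_Swim vs Model, where filled points mark an adjusted p under 0.05 and dotted lines a fold change of 2. At the left 37 of 41 points lie below 0, with wide errors for Ugt2b5, Ugt1a6a and Ugt1a1, and at the right 36 of 41 lie above 0 with no point filled.

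Among the UGTs, Ugt2b35 had the smallest spread between mice. It read 46.3, 52.8 and 45.5 CPM in Ctrl, 42.0, 44.9 and 40.9 in Ctrl_Swim, 16.7, 17.5 and 17.26 in Model and 25.2, 21.8 and 22.3 in Model_Swim. The AOM/DSS mice, trained or not, all lay below the other 6 mice, and the 3 Model mice were alike. In Model vs Ctrl it fell by 1.49 ± 0.08 on the log2 scale (SE, edgeR adjusted p = 1.73e-05), and it was past both cutoffs in each of 25 alternative fits, where the highest adjusted p was 0.0415. Here and below, these 25 include the main fit read at the adjusted p alone, which repeats the main values by construction. Ugt2b35 belongs to the UGT2B group, which glucuronidates steroids, bile acids and drugs, and its gene lies in the cluster of Ugt2 genes on chromosome 5 (87000860 to 87013274, GRCm38.p6). Its promoter window, from 250 bases before to 50 bases after the start of the gene in RefSeq (GRCm38.p6), is shown because the gene kept its call in every fit. It holds no match of the motifs searched and so no capitals.
Ugt2b35 promoter, chr5:87000610-87000909, + strand: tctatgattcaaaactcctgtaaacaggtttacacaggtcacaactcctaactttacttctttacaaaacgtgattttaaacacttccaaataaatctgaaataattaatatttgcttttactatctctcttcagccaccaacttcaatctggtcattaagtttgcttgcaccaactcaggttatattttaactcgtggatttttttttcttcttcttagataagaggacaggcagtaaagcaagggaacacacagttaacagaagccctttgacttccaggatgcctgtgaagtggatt

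Ugt2b34, the most abundant UGT, read 634, 664 and 654 CPM in Ctrl and 258, 334 and 441 CPM in Model. The groups did not overlap, and it fell by 0.92 ± 0.16 on the log2 scale (SE, edgeR adjusted p = 0.00239). Ugt1a7c, the leading UGT1A by count, read 189, 204 and 191 CPM in Ctrl and 62.3, 82.6 and 147 CPM in Model, and fell by 1.00 ± 0.23 (SE, adjusted p = 0.00910). The other UGTs of at least 1 FPKM were divided between the Model mice. Ugt2b5 read 40.0, 48.7 and 42.9 CPM in Ctrl, 1.18 and 2.02 CPM in Model 1 and 2, and 26.7 CPM in Model 3. Ugt1a6a, a UGT of planar phenols, read 61.8 to 66.8 CPM in Ctrl, 12.2 and 13.7 CPM in Model 1 and 2, and 59.9 CPM in Model 3. Ugt1a1, the enzyme of bilirubin glucuronidation, read 23.6 to 34.5 CPM in Ctrl, 4.65 and 8.66 CPM in Model 1 and 2, and 39.3 CPM in Model 3, above every Ctrl mouse. For these 3 genes Model 1 and 2 were far below the Ctrl mice. Model 3 was near or above the Ctrl mice for Ugt1a6a and Ugt1a1. For Ugt2b5 it was below every Ctrl mouse, at 60.8% of their mean. With all mice none of them passed by edgeR: the log2 fold changes were -2.15 ± 0.77 for Ugt2b5 (SE, edgeR adjusted p = 0.0529), -1.16 ± 0.46 for Ugt1a6a (adjusted p = 0.0748) and -0.67 ± 0.56 for Ugt1a1 (adjusted p = 0.386). Without Model 3 they were -4.77, -2.28 and -2.05, with adjusted p of 1.17e-06, 9.70e-07 and 0.000411. Ugt2b36 had the same division, with 0.64 and 0.60 CPM in Model 1 and 2, 3.04 CPM in Model 3 and 2.26 to 4.85 CPM in Ctrl (-1.44 ± 0.55, edgeR adjusted p = 0.0657). With all mice, limma on log2(FPKM + 1) and on log2(FPKM + 0.1) called Ugt2b5, Ugt1a6a and Ugt2b36 at the adjusted p. DESeq2 called Ugt2b36 past both cutoffs (-1.44, DESeq2 adjusted p = 0.0272) and gave no adjusted p for Ugt2b5. Ugt1a1 was called in none of these fits. Ugt2b38 and Ugt1a2, the remaining tested UGTs, were at or below 1.15 CPM in every library and did not pass.

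SULT genes made up 4 of the 5 members past both cutoffs. Sult1a1 read 277, 324 and 347 CPM in Ctrl, 72.8, 149 and 167 in Model and 214, 216 and 196 in Model_Swim, and Sult1d1 read 319.6, 351 and 309.7 CPM in Ctrl, 80.3, 116 and 219.7 in Model and 274, 256 and 246 in Model_Swim. Both genes were lower in every Model mouse than in any mouse of the 3 other groups. Sult1a1 fell by 1.28 ± 0.27 and Sult1d1 by 1.24 ± 0.29 on the log2 scale in Model vs Ctrl (SE, edgeR adjusted p = 0.00567 and 0.00904). Sult1c2, a sulfotransferase of phenols and hydroxyarylamines, read 48.7, 59.7 and 49.8 CPM in Ctrl and 19.3, 12.7 and 29.9 CPM in Model, and fell by 1.35 ± 0.24 (SE, adjusted p = 0.00261). Sult2b1, which sulfates cholesterol and other hydroxysteroids, read 42.4, 33.9 and 44.96 CPM in Ctrl and 18.6, 25.4 and 16.9 CPM in Model, with Model 3 the lowest, and fell by 0.99 ± 0.15 (SE, adjusted p = 0.00127). Sult1b1, which acts on thyroid hormones and small phenols, fell by 0.29 ± 0.10 (adjusted p = 0.0468), a call lost in 18 of 25 alternative fits, among them those without any 1 of the Model mice. The 3 mice of Model read 110, 103 and 113 CPM for this gene and those of Ctrl 122, 137 and 141 CPM. Sult5a1 was the member that rose past both cutoffs, by 1.96 ± 0.48 (SE, adjusted p = 0.0108), from 4, 8 and 11 counts in Ctrl to 22, 39 and 29 counts in Model. It is scarce, with a mean of 0.25 FPKM in Ctrl and 1.06 FPKM in Model. Sult4a1, a brain-type member with no firmly known substrate, read 6.46 to 7.14 CPM in Ctrl, 2.09, 4.47 and 7.80 CPM in Model, and did not pass (-0.52 ± 0.34, adjusted p = 0.248), and neither did the estrogen sulfotransferase gene Sult1e1, at or below 1.36 CPM in every library. The promoter window of Sult1d1 is shown as that of a strongly expressed SULT with more than 1 motif match, where capitals mark, in order, the CDX motif TTTATG and the other strand of the dioxin response element core GCGTG.
Sult1d1 promoter, chr5:87568957-87569256, - strand: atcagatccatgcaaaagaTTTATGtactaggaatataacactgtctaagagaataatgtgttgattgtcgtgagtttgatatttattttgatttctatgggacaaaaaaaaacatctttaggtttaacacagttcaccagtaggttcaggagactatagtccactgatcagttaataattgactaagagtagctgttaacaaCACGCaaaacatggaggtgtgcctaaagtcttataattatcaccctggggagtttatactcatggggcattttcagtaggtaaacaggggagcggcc

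The GSTs divided by class. Of the 7 mu genes, which lie together on chromosome 3, Gstm1, Gstm2, Gstm3, Gstm4 and Gstm6 fell. Gstm1, the most abundant of them, read 299, 330.2 and 319.9 CPM in Ctrl and 208, 238 and 269 CPM in Model, and fell by 0.41 ± 0.10 on the log2 scale (SE, edgeR adjusted p = 0.0108). Gstm2 read 89.3, 97.5 and 99.8 CPM in Ctrl and 56.2, 63.6 and 52.7 CPM in Model, and fell by 0.73 ± 0.08 (SE, adjusted p = 0.000406). Here Model 3 was the lowest of the 12 mice, unlike in the UGTs. Gstm3 and Gstm4 fell by 0.66 ± 0.14 and 0.76 ± 0.13 (adjusted p = 0.00600 and 0.00260). Gstm6 fell by 0.40 ± 0.12 (adjusted p = 0.0293), a call lost in 13 of 25 alternative fits, among them those without Model 1 or without any 1 of the Ctrl mice. Gstm5 and Gstm7 did not pass and were uneven: Gstm5 read 34.6 to 38.4 CPM in Ctrl and 47.3, 28.6 and 22.2 CPM in Model 1, 2 and 3, and Gstm7 read 10.3 to 12.2 CPM in Ctrl and 15.7, 9.91 and 6.99 CPM, so that in both genes Model 1 was the highest and Model 3 the lowest of all 12 mice.

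No gene of the alpha class passed as lower with all mice. Gsta3, an alpha GST with high activity towards aflatoxin epoxide in the mouse, read 26.05, 25.8 and 30.8 CPM in Ctrl, 34.6, 39.0 and 41.1 in Ctrl_Swim, 38.2, 34.4 and 31.6 in Model and 41.8, 43.6 and 47.6 in Model_Swim. The 3 Ctrl mice were the lowest of the 12 mice, and Gsta3 rose by 0.34 ± 0.10 on the log2 scale in Model vs Ctrl (SE, edgeR adjusted p = 0.0259). This call was lost in 9 of 25 alternative fits, among them those without Ctrl 1, Ctrl 2, Model 1 or Model 2 (adjusted p = 0.0857, 0.0935, 0.0745 and 0.0556). Gsta4, which clears hydroxyalkenals from lipid peroxidation, read 38.6 to 45.02 CPM in Ctrl and 44.8 to 54.8 CPM in Model and did not pass (0.24 ± 0.13, adjusted p = 0.175). Gsta1, whose sequence is mostly shared with neighbouring genes, had a log2 fold change of -0.32 ± 0.22 (adjusted p = 0.287), and without Model 3 it fell by 0.67 (adjusted p = 0.00664). The promoter window of Gsta3 is the one of the 3 GST alpha windows in the table (Gsta1, Gsta2 and Gsta3) that holds an antioxidant response element, the NRF2 motif TGACNNNGC, at 121 bases before the start. It is shown for that reason, with the match in capitals.
Gsta3 promoter, chr1:21240335-21240634, + strand: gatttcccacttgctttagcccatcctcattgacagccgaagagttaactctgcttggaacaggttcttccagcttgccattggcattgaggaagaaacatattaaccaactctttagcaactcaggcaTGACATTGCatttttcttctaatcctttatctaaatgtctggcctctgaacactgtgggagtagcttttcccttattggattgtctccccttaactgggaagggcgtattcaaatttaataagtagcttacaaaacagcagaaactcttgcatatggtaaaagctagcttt

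In the theta class, Gstt2 read 40.6, 40.6 and 42.6 CPM in Ctrl and 26.6, 31.3 and 32.4 CPM in Model and fell by 0.46 ± 0.09 on the log2 scale (SE, edgeR adjusted p = 0.00455). Gstt3 fell by 0.39 ± 0.13 (adjusted p = 0.0459), which 18 of 25 alternative fits did not retain, and Gstt1 did not pass (-0.10 ± 0.16, adjusted p = 0.632). Gstp1, the pi-class enzyme, read 174, 169.7 and 188 CPM in Ctrl and 122, 140.5 and 184 CPM in Model, so that Model 3 again lay among the Ctrl mice (-0.25 ± 0.13, adjusted p = 0.148). Gsto1, which reduces dehydroascorbate and methylated arsenic, read 414 to 423 CPM in Ctrl and 331, 477 and 307 CPM in Model, spread on both sides of the Ctrl mice (-0.18 ± 0.20, adjusted p = 0.522). The mitochondrial kappa enzyme Gstk1 read 52.6 to 59.5 CPM in Ctrl and 30.8, 27.0 and 54.6 CPM in Model (-0.56 ± 0.21, adjusted p = 0.0604), and Gstz1, which isomerises maleylacetoacetate in tyrosine breakdown, 39.0 to 46.0 and 34.8, 28.6 and 40.8 CPM (-0.31 ± 0.11, adjusted p = 0.0572). Gsta2 and Gsto2 were at or below 1.69 CPM in every library.

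Of the microsomal enzymes, Mgst1 and Mgst3 fell and Mgst2 did not pass. Mgst1 read 127, 147 and 141 CPM in Ctrl and 87.5, 88.1 and 118 CPM in Model and fell by 0.50 ± 0.12 on the log2 scale (SE, edgeR adjusted p = 0.00927). Mgst3 read 353, 379 and 359 CPM in Ctrl and 220.0, 228 and 295 CPM in Model and fell by 0.55 ± 0.12 (SE, adjusted p = 0.00707). Both groups were separate in either gene. Mgst2, which also makes leukotriene C4, read 68.6 to 73.5 CPM in Ctrl and 50.7, 55.6 and 78.9 CPM in Model with Model 3 above every Ctrl mouse (-0.20 ± 0.13, adjusted p = 0.266). Nat2, the arylamine acetyltransferase, read 25.3 to 28.8 CPM in Ctrl and 19.9 to 25.4 CPM in Model (-0.18 ± 0.14, adjusted p = 0.347).

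**Figure D3:**
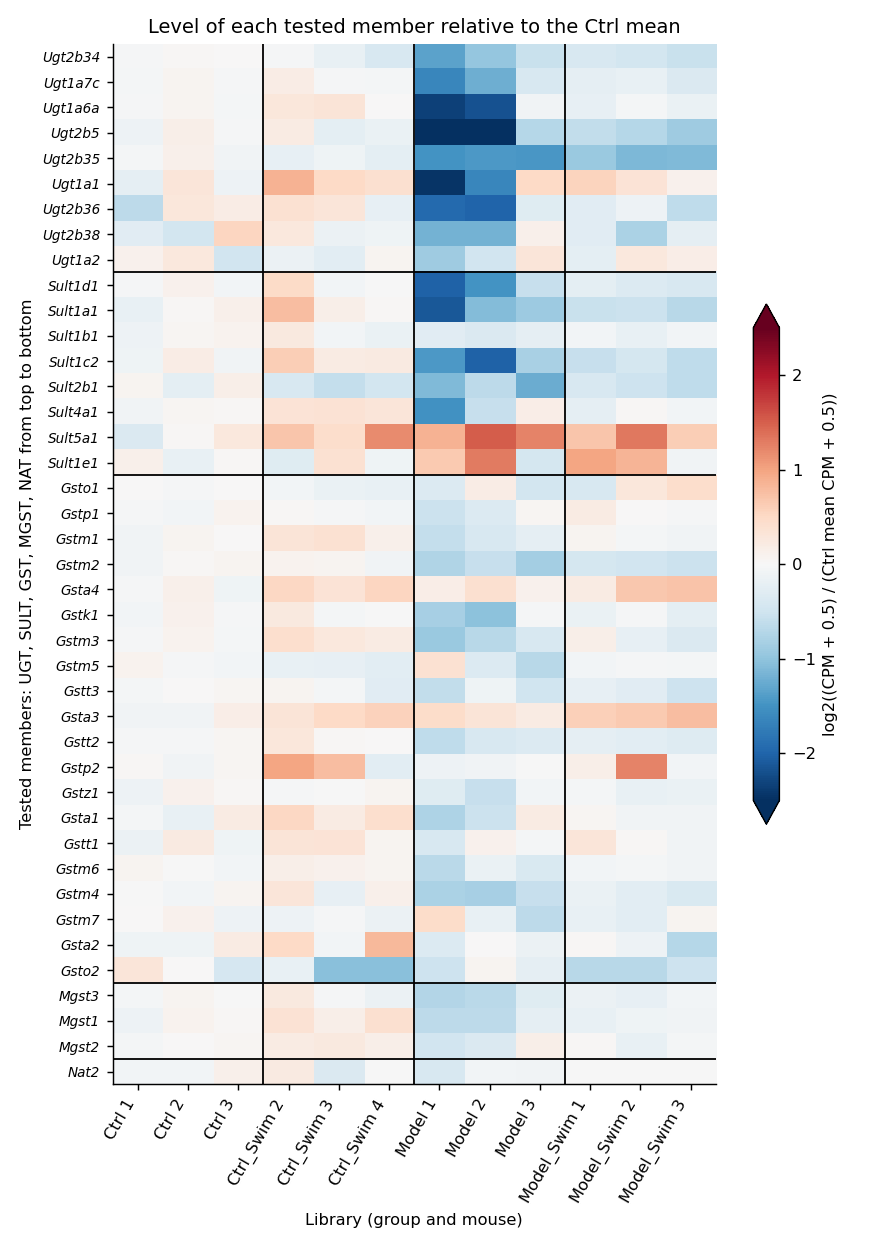
Heat map of log2((CPM + 0.5) / (Ctrl mean CPM + 0.5)) for the 41 tested members (rows, by family and level) in the 12 libraries (columns), with colours limited at 2.5 in either direction. Blue columns of Model 1 and 2 stand out in the UGT and SULT rows, Ugt2b35 is blue in all 6 AOM/DSS mice, and Gsta3 and Sult5a1 are red in the 9 libraries outside Ctrl.

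The order of the Model mice differed between families. Model 1 was the lowest Model mouse in 8 of 9 tested UGTs and Model 3 the highest in 8 of 9, while among the 20 GSTs Model 1 was the lowest in 11 and Model 3 the highest in 9. Over all genes tested Model 1 was the lowest Model mouse in 39.0%, and among genes lower in Model by the adjusted p in 34.0%. The share of all genes with Model 3 the highest was not computed. The summed colonocyte list had the same order as the UGTs, with Model 3 highest. Without Model 3, 13 members were past both cutoffs (8 of 9 UGTs and 5 SULTs) and 28 changed at the adjusted p alone, 26 of them lower, while over all genes 1679 were past both cutoffs, against 1150 with it. Here and below, the all-gene share at the adjusted p alone was not computed for fits without a library or with a covariate or block. Without Model 1, 3 members were past both cutoffs and 16 changed, while over all genes 943 were past both cutoffs, against 1150 with it. Without both Model 1 and Model 3, the libraries with acinar transcripts, the fit assumes that the lone Model 2 varies like the other groups. There the members past both cutoffs with all mice stood at -1.48 for Ugt2b35, -1.10 for Sult1a1, -2.07 for Sult1c2, -1.52 for Sult1d1 and 2.30 for Sult5a1. With the acinar list as a covariate 3 members were past both cutoffs and 10 changed, while over all genes 759 were past both cutoffs. With the mean log2 level of the 18 colonocyte genes as a covariate, a fit added after the data were seen, 2 members changed and 1 was past both cutoffs, while over all genes 211 were past both cutoffs, against 1150 without the covariate. The members were Gstm2 (-0.60, adjusted p = 0.0276) and Ugt2b35 (-1.43, adjusted p = 0.00417). In that fit Sult1a1 stood at -0.23 (adjusted p = 0.231), Sult1d1 at -0.36 (adjusted p = 0.481), Ugt1a7c at -0.34 (adjusted p = 0.464) and Ugt2b34 at -0.38 (adjusted p = 0.143). Other members lost the call with more of their fold, namely Sult1c2 at -1.09 (adjusted p = 0.109), Sult2b1 at -0.76 (adjusted p = 0.0742), Gstm4 at -0.55 (adjusted p = 0.125) and Sult5a1 at 2.37 (adjusted p = 0.0735). With the epithelial list as the covariate Ugt2b35 was the only member that passed, but only 2 of all genes were past both cutoffs in that fit, and Sult2b1 stood at -0.90 and Gstm2 at -0.63 without passing (adjusted p = 0.425 and 0.315). In Model vs Ctrl the summed colonocyte level was lower in every Model mouse than in any Ctrl mouse, so its part and that of AOM/DSS cannot be told apart there. The Model_Swim mice, which also received AOM/DSS, had 13036 to 14976 CPM for this list, beside 14062 to 14780 CPM in Ctrl.

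**Figure D4:**
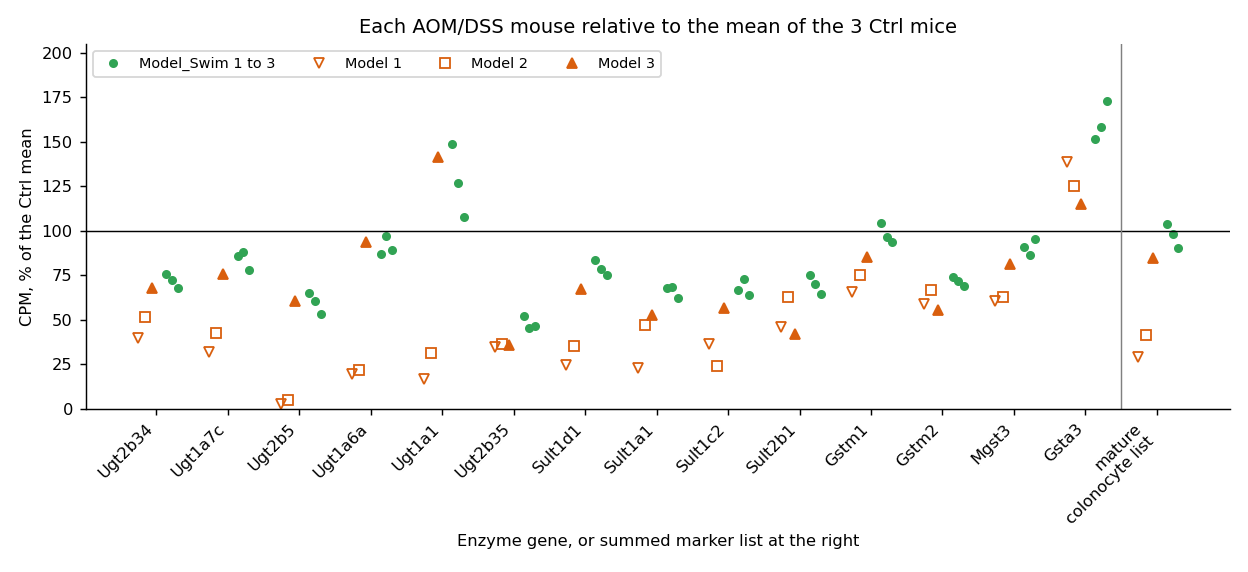
CPM of 14 enzyme genes, and the summed mature colonocyte list at the right, in each Model mouse and in the 3 Model_Swim mice as percent of the Ctrl mean (horizontal line). Ugt2b5, Ugt1a6a and Ugt1a1 divide Model 1 and 2 from Model 3 as the colonocyte list does, whereas the 3 Model mice coincide for Ugt2b35 and Model 3 is lowest for Gstm2 and Sult2b1.

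Swimming was compared within the AOM/DSS mice, Model_Swim vs Model. By edgeR 0 of 41 members passed the adjusted p, where 0.071% of all genes did, 0.0646% higher and 0.00646% lower, and the lowest adjusted p was 0.0703, for Ugt2b35. At an unadjusted p under 0.05 there were 18 members, beside 13.6% of all genes. DESeq2 called 6 members at its adjusted p, all of them higher, and the share of all genes for that count was not computed. Past both cutoffs in DESeq2 were 0 members, beside 115 of all genes. The estimate was positive for 36 of 41 members, with medians of 0.82 for the UGTs, 0.45 for the SULTs, 0.37 for the MGSTs and 0.30 for the GSTs on the log2 scale. In 18 members every Model_Swim mouse was above every Model mouse, as in 8.48% of all genes, and in 1 member, Gsto2, they were all below, as in 8.51%. Ugt2b35 differed by 0.43 ± 0.08 (SE), Sult1c2 by 0.80 ± 0.24 (adjusted p = 0.223), Sult1d1 by 0.90 ± 0.29 (adjusted p = 0.240), Gstm3 by 0.54 ± 0.14 (adjusted p = 0.176) and Gstm1 by 0.38 ± 0.10 (adjusted p = 0.174). Ugt2b5, at 28.4, 26.6 and 23.4 CPM in Model_Swim, and Ugt1a6a, at 55.5, 61.8 and 56.8 CPM, were close to the single mouse Model 3 and far above Model 1 and 2. The Model_Swim mice were more alike than the Model mice, with UGT sums of 242 to 267 FPKM and SULT sums of 234 to 250 FPKM. The edgeR count of 0 members differed when Model 3 was left out. Without that mouse 19 members changed, all higher, and 7 of them were past both cutoffs. Over all genes 327 were then past both cutoffs, against 11 with it, and the share at the adjusted p alone was not computed. Model 3 was the highest Model mouse in 25 of the 41 members, so leaving it out lowers the Model mean for them. The Model group is shared by this comparison and the previous one, so a low Model value enters both.

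Swimming in untreated mice, Ctrl_Swim vs Ctrl, changed 0 of 41 members by edgeR, beside 0.969% of all genes at the adjusted p and 0.168% past both cutoffs, 0.0258% higher and 0.142% lower. At an unadjusted p under 0.05 there were 8 members, beside 17.6% of all genes. DESeq2 called 2 members at its adjusted p, and the share of all genes for that count was not computed. Past both cutoffs in DESeq2 were 0 members, beside 79 of all genes. Gsta3, whose values stand above, had the lowest adjusted p, 0.0553, at 0.47 ± 0.10 on the log2 scale (SE). Its groups did not overlap, with Ctrl_Swim the higher, as in 12.6% of all genes. Gsta4 read 52.5 to 60.1 CPM in Ctrl_Swim against 38.6 to 45.02 CPM in Ctrl (0.47 ± 0.13, adjusted p = 0.119). Sult2b1 had the opposite sign, with 26.8 to 30.5 CPM in Ctrl_Swim against 33.9 to 44.96 CPM in Ctrl (-0.49 ± 0.15, adjusted p = 0.147). The summed alpha class was 150.1% of the Ctrl mean in FPKM and 138% in CPM. Beside this, 13 goblet cell genes summed to 43313 to 55504 CPM in Ctrl and 14976 to 19767 CPM in Ctrl_Swim, with 5 of 13 lower and 0 higher by the test, and all 15 epithelial genes had negative estimates, the lowest adjusted p being 0.0585. The part of these cells in the levels of the members was not tested. UGT summed to 102% in FPKM and 94.1% in CPM, which differ in direction. FPKM is not scaled by TMM, and in FPKM the median gene lay higher by up to 0.11 on the log2 scale in Ctrl_Swim. In the edgeR fit the median was 0.000435. The part of this offset in the FPKM sums was not tested.

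Between the swimming groups, Model_Swim vs Ctrl_Swim, 4 members changed, all lower, beside 5.18% of all genes, 1.69% lower and 3.49% higher, and 0 were past both cutoffs, beside 1% of all genes and 0.0775% lower. DESeq2 called 8 members at its adjusted p, a count for which no share of all genes was computed. By edgeR 10 members had an unadjusted p under 0.05, beside 22.4% of all genes. Ugt2b35 fell by 0.88 ± 0.08 on the log2 scale (SE, edgeR adjusted p = 0.00193), Gstm2 by 0.50 ± 0.08 (adjusted p = 0.00891), Gstt2 by 0.39 ± 0.09 (adjusted p = 0.0381) and Sult1c2 by 0.92 ± 0.24 (adjusted p = 0.0470). Gstm2 read 70.7, 68.3 and 65.9 CPM in Model_Swim against 101, 99.7 and 89.5 CPM in Ctrl_Swim, and Sult1c2 read 35.1, 38.5 and 33.8 CPM against 81.1, 61.2 and 61.5 CPM. In either gene the groups did not overlap, with Model_Swim the lower, as in 16.4% of all genes. Ugt2b35 kept its call in all 25 alternative fits, Gstm2 in all but the fit with the replicate number as a block, and Gstt2 and Sult1c2 lost it in 6 and 11 of them. The count of 4 was 2 to 11 when 1 library was left out, with 2 without Ctrl_Swim 2 or 3 or without any 1 Model_Swim mouse, 7 without Model 1 and 11 without Model 3, and 1 with the replicate number as a block. Sult1a1 read 214, 216 and 196 CPM against 537, 348 and 323 CPM and did not pass (-0.95 ± 0.27, adjusted p = 0.0675).

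The difference of the swimming effect between AOM/DSS and untreated mice was tested as an interaction. By edgeR 0 of 41 members and 0% of all genes passed, and 4 members had an unadjusted p under 0.05, beside 19% of all genes. DESeq2 called 2 members at its adjusted p, a count for which no share of all genes was computed. The lowest adjusted p were 0.0957 for Ugt2b35, at 0.61 ± 0.11 on the log2 scale, and 0.115 for Sult2b1, at 0.96 ± 0.21 (SE). Both genes were lower in Ctrl_Swim than in Ctrl and higher in Model_Swim than in Model, without overlap in either pair of groups. Each pair taken alone, such a separation was seen in 14.9% and 8.48% of all genes. For all 9 tested UGTs the interaction was positive, with a median of 0.71. Without Model 3, 11 members passed the adjusted p and 6 of them both cutoffs, beside 248 of all genes past both cutoffs. Without Model 2, 1 member passed, and without Model 1, 0 did. For these fits the share of all genes at the adjusted p alone was not computed.

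The enzymes that supply the donor molecules were mostly lower in Model. Of 13 tested genes for UDP-glucuronic acid and PAPS, 8 fell and 0 rose. Beside this count and those of the lists that follow, 16.2% of all genes fell and 16.5% rose in Model vs Ctrl. Papss2, a PAPS synthase and the most abundant of them, read 985, 969.7 and 866 CPM in Ctrl and 283, 276 and 514 CPM in Model, and fell by 1.39 ± 0.25 on the log2 scale (SE, edgeR adjusted p = 0.00284). Slc26a1, a sulfate transporter, had 151, 156 and 128 counts in Ctrl, 2, 2 and 8 counts in Model and 121, 130 and 121 counts in Model_Swim. It fell by 5.12 ± 0.50 in Model vs Ctrl (adjusted p = 0.000316), and it was the single gene of this list that rose in Model_Swim vs Model, by 4.88 ± 0.50 (adjusted p = 0.00250). All 3 Model mice lay far below the other 9 mice, which had 94 counts or more.

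Glutathione genes went both ways: of 29 tested, 11 fell and 5 rose. Gpx2, the gastrointestinal glutathione peroxidase, fell by 0.57 ± 0.12 on the log2 scale (SE, edgeR adjusted p = 0.00527), and Anpep, a brush border peptidase that trims glutathione conjugates, fell by 2.07 ± 0.46 (adjusted p = 0.00749), though its Ctrl mice read 54.7, 166 and 237 CPM. Slc7a11, which imports cystine for glutathione synthesis, read 12.7, 7.90 and 10.7 CPM in Ctrl, 7.83, 4.25 and 9.76 in Ctrl_Swim, 25.3, 25.8 and 16.2 in Model and 19.48, 27.3 and 34.7 in Model_Swim. All 6 AOM/DSS mice were above the other 6, and it rose by 1.10 ± 0.31 in Model vs Ctrl and by 1.90 ± 0.32 in Model_Swim vs Ctrl_Swim (adjusted p = 0.0207 and 0.0111). Chac1, which breaks glutathione down, read 2.73 to 3.46 CPM in Ctrl and 0.97 to 1.37 CPM in Ctrl_Swim and fell by 1.44 ± 0.25 between them (adjusted p = 0.0334). Of 28 regulators, 10 fell and 3 rose. Hnf4a, the most abundant, fell by 0.38 ± 0.10, Cdx2 by 0.87 ± 0.16 and Hnf4g by 1.09 ± 0.13, while Ahr rose by 0.37 ± 0.11 (adjusted p = 0.0143, 0.00341, 0.000591 and 0.0279), and Nr1i2, which encodes PXR, did not pass (-0.09 ± 0.10, adjusted p = 0.505). Of 21 NRF2 targets, 7 fell and 3 rose, with Fth1, a ferritin gene and the most abundant, at -0.28 ± 0.12 (adjusted p = 0.106), and of 6 AHR targets 1 rose and 0 fell. The gene that rose in both lists was Aldh3a1, at 0.33 to 0.83 CPM in Ctrl, 5.56 and 5.12 CPM in Model 1 and 2 and 0.80 CPM in Model 3, and it moved with 23 squamous genes that summed to 91.9 to 102 CPM in Ctrl, 1343 and 2455 CPM in Model 1 and 2 and 82.8 CPM in Model 3, and to 93.1 to 1151 CPM in Ctrl_Swim and 264 to 1421 CPM in Model_Swim. The part of those cells in the level of Aldh3a1 was not tested. Nqo1, in both lists, read 77.8 to 85.6 CPM in Ctrl and 47.9, 47.3 and 84.3 CPM in Model (-0.45 ± 0.19, adjusted p = 0.0870), with Model 3 again among the Ctrl mice.

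The genes that export, cleave or otherwise modify conjugates were also followed. Of 15 efflux transporters, 3 rose and 0 fell, a share near that of all genes that rose, the highest of the 3 being Abcc4 at 0.85 ± 0.18 on the log2 scale (SE, edgeR adjusted p = 0.00566). Abcb1a, the most abundant transporter of the list, read 663 to 796 CPM in Ctrl and 213, 406 and 793 CPM in Model and is not among the 3. Of 16 tested genes of the deconjugating list, 3 fell, a share near that of all genes that fell, and 1 rose. The carboxylesterase genes Ces1e, Ces1g and Ces2e fell. Sulf1, an extracellular heparan sulfatase, rose by 1.26 ± 0.13 (edgeR adjusted p = 0.000357), beside 11 fibroblast genes that summed to 1896 to 2036 CPM in Ctrl and 3181 to 3324 CPM in Model. Ces1g fell by 1.51 ± 0.50 (adjusted p = 0.0394), Ces1e by 1.04 ± 0.22 (adjusted p = 0.00575) and Ces2e, the most abundant of the list, by 0.75 ± 0.24 (adjusted p = 0.0357). Of 14 other conjugating genes, 4 fell and 2 rose. Acsm3, a medium-chain acyl-CoA synthetase gene and the most abundant of them, fell by 0.61 ± 0.17 (adjusted p = 0.0184). The 2 that rose were Ptges, the prostaglandin E synthase of the same protein superfamily as the MGSTs, which rose by 1.33 ± 0.18 (adjusted p = 0.000863), and the nicotinamide methyltransferase gene Nnmt, which also rose in Model_Swim vs Ctrl_Swim, by 1.07 ± 0.21 (adjusted p = 0.0219). The indolethylamine methyltransferase gene Inmt read 5.08 to 6.76 CPM in Ctrl and 17.25 to 21.9 CPM in Ctrl_Swim and rose by 1.64 ± 0.26 between them (adjusted p = 0.0266), the only gene of that list to do so, and it fell by 1.09 ± 0.26 in Model_Swim vs Ctrl_Swim (adjusted p = 0.0379).

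The promoter windows were searched for 3 motifs on both strands. Of the 53 members 47 had a window in the RefSeq table, and for the members with several windows the first was used. The antioxidant response element TGACNNNGC occurred in 3 of 47, Gsta3, Gstm5 and Mgst1, beside 14.2% of the windows of 13883 genes. The dioxin response element core GCGTG, the AHR motif, occurred in 9 of 47, beside 44.6%. The CDX motif TTTATG occurred in 4 of 47, Gstm5, Mgst1, Sult1d1 and Ugt2b1, beside 7.79%. No printed match overlaps a match of another motif. Of the members with a CDX motif, Mgst1 and Sult1d1 fell in Model vs Ctrl, Gstm5 did not pass and Ugt2b1 was not tested.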

How the data were processed

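Total RNA of colorectal tissue from 12 mice was made into stranded mRNA libraries and sequenced. The authors deposited read counts from HTSeq-count and FPKM values from Cufflinks per gene, made after Trimmomatic and HISAT2 (genome GRCm38.p6), with tool versions and the counting mode not given in the sources used here. The deposited counts were tested with edgeR 4.0.16 (R 4.3.3) by quasi-likelihood in 1 fit of 4 groups (TMM, filterByExpr with a minimum count of 10, prior count 2), and p-values were adjusted by Benjamini-Hochberg over 15484 of 18514 genes. All adjusted p in the text come from this fit unless another tool is named. A gene changed at an adjusted p under 0.05, and the study's cutoffs add a fold change over 2 or under 0.5. FPKM values were only summed or fitted with limma 3.58.1, and DESeq2 1.42.0 was an alternative. The scripts were tested on simulated data. The members are fixed by symbol, and members and gene lists were chosen with earlier results of these data known. Values were given, by rule, for members with a mean of at least 1 FPKM (at most the 6 highest of each UGT or GST subfamily, MGST, SULT or NAT) or past both cutoffs in a comparison, and in each pathway list for the most abundant gene and for genes past both cutoffs with a mean of at least 1 CPM (at most 3 in each direction). Marker lists are given as sums. A further gene of the regulator list and a further motif are not reported here. Gstm7, Gsto2, Gsta2, Sult1e1, Ugt1a2, Ugt2b38, Ahr, Nr1i2, Cdx2, Abcc4 and, in Model vs Ctrl, Nnmt lie outside the rule and were chosen after their values were seen. Depth limits a gene at 0 to below 0.174 CPM, counting error only.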

Additional observations from a re-analysis of the deposited data

How the results depend on the processing

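Over 25 alternatives, the number of members past both cutoffs in Model vs Ctrl, 5, was 19 at the adjusted p alone, 3 with the acinar list as covariate, 1 with the epithelium list, 8 with limma on log2(FPKM + 0.1), and 3 to 13 when 1 library was left out. The mature colonocyte list as covariate (1) and the fit without Model 1 and Model 3 (12) were chosen after seeing the data. For the UGTs, 1 became 2 with DESeq2, with no filter and with the replicate block, 3 at the adjusted p alone, 3, 4 and 2 with limma on FPKM (pseudocount 1, pseudocount 0.1, and no filter), 7 without Model 1 and Model 3 and 1 to 8 with 1 library left out. For the SULTs, 4 became 2 with the acinar list, 0 with the epithelium or colonocyte list and 2 to 5 with 1 library left out. For the GSTs, 0 became 8 at the adjusted p alone and 1 without Model 1 and Model 3, and for the MGSTs 0 became 2 at the adjusted p alone. Model_Swim vs Model, 0, was 6 without Model 1 and Model 3 and 0 to 7 with 1 library left out. Model_Swim vs Ctrl_Swim, 0, was 4 at the adjusted p alone and 1 with the colonocyte list. The interaction, 0, was 5 without Model 1 and Model 3 and 0 to 6 with 1 library left out. Apart from fits with fewer samples, the cause of these shifts was not tested.

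Estimates in Model vs Ctrl that turned positive belonged to members that had not passed, except Sult1b1 and Gstt3. With the epithelium list these were Gsta1 at 0.26, Gstp1 at 0.065, Gstp2 at 0.69, Mgst2 at 0.088, Nat2 at 0.26, Sult1b1 at 0.20 and Ugt1a1 at 0.37. With the colonocyte list they were Gsta1 at 0.24, Gstp1 at 0.11, Gstp2 at 0.41, Gstt1 at 0.32, Gstt3 at 0.010, Mgst2 at 0.10, Nat2 at 0.21, Sult4a1 at 0.38 and Ugt1a1 at 0.85. With the acinar list they were Gsto1 at 0.19, Gstt1 at 0.10 and Nat2 at 0.024, and without Model 1 and Model 3 Gsto1 at 0.16 and Gstt1 at 0.083. With limma on FPKM Gstp2 stood at 0.040, 0.042 and 0.040 (pseudocount 1, pseudocount 0.1, and no filter), and Gstt1 at 0.0051, 0.0050 and 0.0051. With 1 library left out Gstm5 ranged from -0.49 (without Model 1) to 0.085 (without Model 3), and Gstt1 from -0.20 (without Model 2) to 0.043 (without Ctrl 2). The cause was not tested.

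The labels do not say that replicate numbers pair mice, and only 4 of 15 same-numbered pairs deviated together (r over 0.1, range -0.26 to 0.56). With the replicate block 7 members were past both cutoffs in Model vs Ctrl and 17 changed, and in Model_Swim vs Ctrl_Swim 1 changed. Members at 0 in a library are limited by depth, and genes of shared exons by the counting mode.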

Other observations

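Gstp2, a pi-class GST beside Gstp1, was uneven within the swimming groups. It read 26.7 and 23.0 CPM in Ctrl_Swim 2 and 3 and 32.1 CPM in Model_Swim 2, and 10.98 to 14.8 CPM in the other 9 libraries. The lowest of these 3 values was 1.56 times the highest of the 9. Of 15484 tested genes, 53 had the same 3 libraries above the other 9, and Gstp2 was the 1 gene among them with a ratio over 1.5. The libraries were picked by this level, so no test was made. Gstp1 had no such division, at 181 and 174 CPM in Ctrl_Swim 2 and 3 and 179 CPM in Model_Swim 2, and 46.9% of the 100-base stretches of Gstp2 also occur in other genes.

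Gsto1, the most abundant cytosolic GST, was high in Model_Swim 2 and 3, at 512 and 572 CPM, and in Model 2, at 477 CPM, while Model_Swim 1 read 319.7 CPM and the Ctrl mice 414 to 423 CPM. The 12 neutrophil genes summed to 648 and 452 CPM in Model_Swim 2 and 3, 452 CPM in Model 2 and 68.6 CPM in Model_Swim 1, but to 368 CPM in Model 1, where Gsto1 read 331 CPM. Their part in the level of Gsto1 was not tested.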
